A study of Mus musculus with 6 samples.

Results

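The miR-125 family comprises the vertebrate homologs of lin-4, and it is represented in the count table by 3 miRNA genes, Mir125a, Mir125b-1 and Mir125b-2. These are the rows whose Ensembl identifiers carry those names in GENCODE M21, namely ENSMUSG00000065479, ENSMUSG00000093354 and ENSMUSG00000065472, 3 of 1973 rows in all. HN9.10e is an immortalized line of mouse embryonic hippocampal cells, labelled as neurons and wild type, and all cells were grown in medium with fetal bovine serum. Exosomes are small vesicles that cells release, and they were collected from the medium of untreated cells (control, 3 libraries) and of cells given 100 nM ceramide (3 libraries), in each case after 48 h. RNA was extracted from a set number of exosomes, and a set mass of it was sequenced and counted per miRNA gene. Each row adds up what came from either arm of its hairpin (5p and 3p). The only model behind these data is this cell line, and the labels do not say whether the 3 replicates of a group are separate cultures, so p-values measure the spread between these libraries.

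The lin-4 RNA of the nematode was the founding member of the miRNAs, where it times larval development by repressing lin-14 and lin-28. A miRNA finds its target mRNAs mainly through its seed, the bases 2 to 8 from its 5′ end, and miRNAs with one seed are grouped as a family. In mammals miR-125 represses Lin28 and other genes, and miR-125b is abundant in brain, where it has been linked to neuronal differentiation of progenitor cells. In vertebrate genomes its genes lie beside genes of the miR-99/100 and let-7 families, let-7 being the other classical timing miRNA.

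The mature sequences are printed first because they decide which reads can be told apart. The 5p miRNAs of the family are given 5′ to 3′ as RefSeq has them (GRCm38.p6), together with miR-351-5p, with the seed in capitals:
miR-125a-5p: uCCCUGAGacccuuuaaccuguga
miR-125b-5p: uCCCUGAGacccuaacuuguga
miR-351-5p: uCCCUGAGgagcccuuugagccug

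Both Mir125b hairpins give the same miR-125b-5p of 22 bases, so a read of it has no single origin. The 24 bases of miR-125a-5p share their first 13 and last 5 bases with miR-125b-5p, and reads of the 2 miRNAs differ in the middle. miR-351-5p shares its first 8 bases with miR-125a-5p and miR-125b-5p. Of all mouse mature miRNAs in the RefSeq table, 5 carry the seed CCCUGAG. The other 2, miR-6367 and miR-6394, had rows without a single count in any of the 6 libraries. The 3p miRNAs, from the other arm of each hairpin, are shown with their seeds because these differ among all 3 genes:
miR-125a-3p: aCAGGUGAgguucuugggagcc
miR-125b-1-3p: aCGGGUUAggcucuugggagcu
miR-125b-2-3p: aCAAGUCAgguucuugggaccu

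The miR-125b-1-3p and miR-125b-2-3p sequences differ at 5 positions, so that reads of the 3p arm, unlike those of the 5p arm, can separate Mir125b-1 from Mir125b-2. Both RefSeq hairpins below are shown with the mature 5p and 3p miRNAs in capitals, to mark what a row of the table can count:
Mir125a: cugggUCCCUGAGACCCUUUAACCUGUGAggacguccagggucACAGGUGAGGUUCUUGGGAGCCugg
Mir125b-1: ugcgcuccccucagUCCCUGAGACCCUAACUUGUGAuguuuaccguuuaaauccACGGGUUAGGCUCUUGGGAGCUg

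Mir125a lies at chr17:17830812-17830879 of GRCm38 on the plus strand, within Spaca6 and overlapping an exon of it. It closes a cluster of 692 bases that begins with Mir99b and holds Mirlet7e in between. Mir125b-1 lies at chr9:41581926-41582002 on the plus strand, in introns of the noncoding genes 3110039I08Rik and Gm49317 and in an exon of the noncoding RNA Gm28119. Its cluster begins with Mir100, holds Mirlet7a-2 and spans 50578 bases. Mir125b-2 lies at chr16:77646273-77646343 on the plus strand, in an intron of the noncoding RNA Mir99ahg, with its last bases in C130023A14Rik. Mir99a and Mirlet7c-1 precede it in a cluster of 47408 bases. The 3 clusters hold the 3 families in one order on the plus strand, with the miR-125 gene last.

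The libraries held 800810 to 2760015 counts, and the smallest and the largest were both from ceramide-treated cells. Of 17 neuronal marker miRNAs 16 had a row, and their summed level was 21642 to 22839.6 CPM in the control libraries and 20136 to 25070.5 CPM in those of ceramide. Of these 16, Mir128-2, Mir138-1 and Mir153 were called lower and none higher. Over all 418 rows tested, 8.37% were called lower and 3.11% higher. The neuronal miRNAs were uneven, since Mir124a rows, which mark mature neurons, stood at 14.3 to 20.96 CPM and Mir9 rows at 63.7 to 78.4 CPM, against 7858 to 14473.5 CPM for Mir218-2. Blood and serum markers (5 of 7 with a row) summed to 327 to 369 CPM in the control group and 288 to 339.8 CPM in the ceramide group. Mir122 of liver had 51.9 to 61.9 and 73.7 to 75.4 CPM, the 5 muscle rows 121 to 149 and 135 to 170.2 CPM, Mir126a of endothelium 953 to 1062 and 919.6 to 1084 CPM, and the 3 oligodendrocyte rows 196 to 213 and 128 to 172 CPM. Among these other lists only Mir338, of the oligodendrocyte list, was called, and it was lower. The part of any of these cells or of serum in the results was not tested. The labels give lane number 1 for control replicate 1 and ceramide replicate 1, lane 4 for the other control libraries and lane 2 for the other ceramide libraries. Both libraries with lane number 1 stand first on a sample sheet, as does ceramide replicate 2, so these libraries may come from different runs. Lane and condition therefore cannot be told apart for replicates 2 and 3, and perhaps not for replicate 1.

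All 3 rows were among the abundant ones. By raw count within each library, Mir125b-1 took rank 8, 7 and 7 in the control libraries and rank 11, 9 and 9 in the ceramide libraries. Mir125b-2 always took the next rank. Mir125a took rank 32, 30 and 26 in control and rank 45, 40 and 35 in ceramide libraries. These ranks need no scaling, and for each of the 3 rows every ceramide rank was below every control rank. A rank also shifts when other rows rise. Mirlet7c-1 went from rank 14, 13 and 13 in control to rank 8, 8 and 8 in ceramide libraries, passing Mir125b-1. How many of all rows shifted in rank without overlap was not computed. The Mir125b rows share a mature miRNA, so their ranks are not separate results. As a level per base of hairpin, since lengths differ (68 bases for Mir125a, 77 for Mir125b-1 and 71 for Mir125b-2), control exosomes had 115 CPM per base for Mir125a, 345 for Mir125b-1 and 369 for Mir125b-2. On this scale the 3 rows took rank 25, 8 and 7 of 418 in control and rank 35, 10 and 8 in ceramide exosomes. The order of Mir125b-1 and Mir125b-2 turned on this scale only because nearly equal counts were divided by 77 and 71 bases. By raw count Mir125b-1 was above Mir125b-2 within every library, although the ranges of their levels overlapped in either group. Each row adds up counts from the arms of its hairpin, not from its whole length. A level per base of hairpin therefore does not measure abundance.

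The first question was whether ceramide changed the amount of these miRNAs in exosomes, relative to all miRNAs counted. Levels are normalized CPM, that is, counts relative to a TMM-scaled library total. In these bulk samples, fewer exosomes carrying a miRNA and less of it per exosome cannot be told apart. Mir125a had 6831, 7699 and 8840.4 CPM in control replicates 1, 2 and 3 and 4138, 4673 and 5207 CPM in ceramide replicates 1, 2 and 3. All ceramide libraries were low and the groups did not overlap. The mean fell from 7790.0 ± 1008 to 4673 ± 534 CPM (SD, n = 3 each), a level 40.0% lower with ceramide. For Mir125a the log2 fold change came to -0.74 with a standard error of 0.13 (edgeR quasi-likelihood, Benjamini-Hochberg adjusted p = 0.00771 over 418 rows). Rows were called at an adjusted p of at most 0.05 and a log2 fold change of 0.6 or more in either direction, so Mir125a was called lower. By size of decrease it was number 29 of the 418 rows. Between 3185 and 12338 counts per library lie behind it. If each count is a distinct molecule, counting alone gives a coefficient of variation of at most 1.77% for Mir125a. The coefficient was 12.9% among control and 11.4% among ceramide libraries. When lane was added to the model, the difference rested on replicate 1 of each group alone, since lanes 2 and 4 each held a single condition. Mir125a then had the log2 fold change of that pair (-0.72, adjusted p = 0.0710, edgeR quasi-likelihood) and was not called, and this fit does not test lane.

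**Figure D1:**
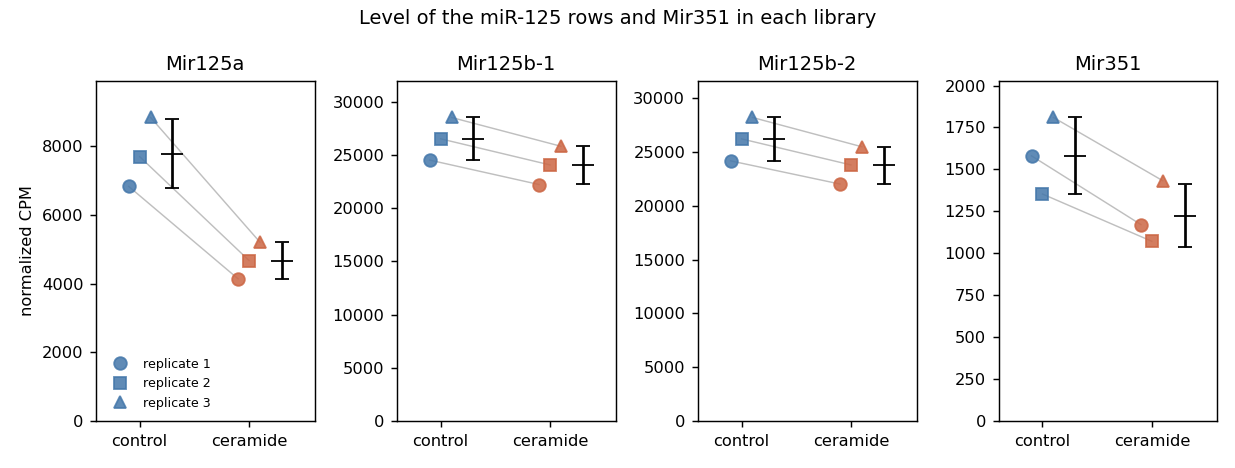
Normalized CPM (vertical axes, from 0) of the 3 miR-125 rows and of Mir351 in each of the 6 libraries. Symbols mark the replicate number, grey lines join equal numbers, and black bars give the mean ± SD of 3 libraries; the Mir125a libraries of the groups do not overlap, while those of the other rows do.

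Mir125b moved far less. Mir125b-1 had 24523, 26525 and 28532 CPM in control replicates 1, 2 and 3 and 22225, 24069 and 25823 CPM in ceramide replicates 1, 2 and 3. The groups overlapped, since ceramide replicate 3 lay above control replicate 1. The means were 26527 ± 2004 and 24039 ± 1799 CPM (SD, n = 3 each), a level 9.38% lower with ceramide. For Mir125b-1 this is a log2 fold change of -0.14 with a standard error of 0.09 (edgeR quasi-likelihood, adjusted p = 0.282), within the spread between replicates. Mir125b-2 had 24186, 26232 and 28225 CPM in control and 22032, 23809 and 25499 CPM in ceramide libraries, again with overlap. Its means were 26214 ± 2019 and 23779.7 ± 1734 CPM (SD, n = 3 each). On the log2 scale the difference of Mir125b-2 was -0.14 with a standard error of 0.09 (same test, adjusted p = 0.282). Neither row was called.

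Equal replicate numbers deviated together in these libraries, and the rows of the family showed this closely. From control to ceramide within replicate 1, 2 and 3, the log2 level of Mir125b-1 fell by 0.14, 0.14 and 0.14. That of Mir125a fell by 0.72, 0.72 and 0.76. In a fit blocked on replicate number, the log2 fold change of Mir125b-1 was again -0.14 with a smaller standard error of 0.03 (adjusted p = 0.0184, edgeR quasi-likelihood), past the p threshold and short of the fold threshold. Mir125b-2 likewise reached an adjusted p of 0.0195 (same fit), and Mir125a one of 0.000597. In that fit 24.9% of all rows were lower at an adjusted p of at most 0.05, and 87 rows (20.8%) passed both thresholds.

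Of the 3 members, 1 was called lower and none higher. Over all 418 rows 48 (11.5%) were called, 35 lower (8.37%) and 13 higher (3.11%). The Mir125b rows share their 5p miRNA and held nearly equal counts, so they are not separate measurements, and the members are too few to set its share against the background. Libraries of the groups did not overlap for 1 of the 3 members, which was lower, and 25.1% of all rows were lower in this sense. The split of all calls depended on scaling, with 21 higher and 26 lower under DESeq2's size factors in edgeR, 23 and 28 under upper-quartile factors, and 4 and 42 with library size alone. Mir125a stayed called and lower under each of the 4 scalings, and Mir125b-1 and Mir125b-2 stayed lower and uncalled. The median log2 fold change was -0.14 over the 3 members and -0.01 over all rows tested.

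**Figure D2:**
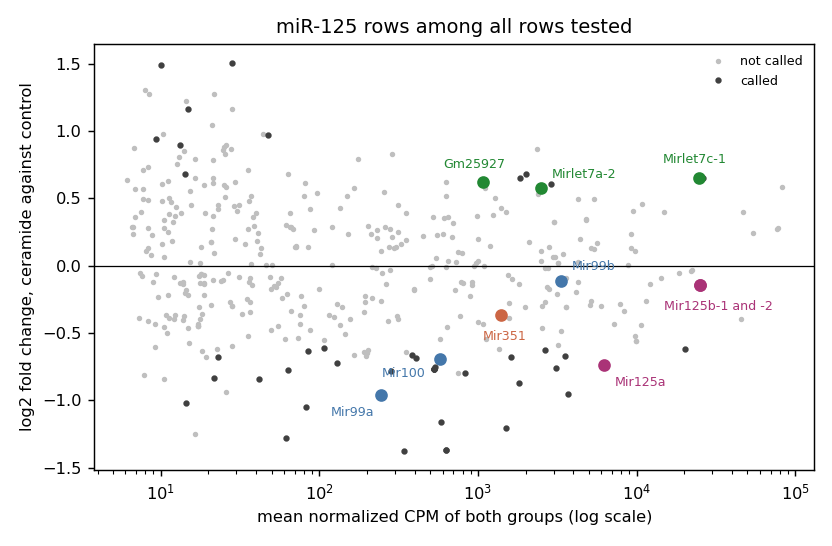
Log2 fold change of ceramide against control (vertical axis) over the mean normalized CPM of both groups (horizontal log axis) for the 418 rows tested. The miR-125 rows are purple, their miR-99/100 partners blue, the let-7 partners green and Mir351 orange; Mir125a, at -0.74, lies among the called rows and both Mir125b rows lie at -0.14.

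The next question was whether Mir125a and Mir125b differed from each other in their response, which their ratio within a library answers without any scaling. There were 0.279, 0.290 and 0.310 Mir125a counts per Mir125b-1 count in control replicates 1, 2 and 3, and 0.186, 0.194 and 0.202 in ceramide replicates 1, 2 and 3. The ratio was low in all ceramide libraries, without overlap. On the log2 scale it was -1.77 ± 0.08 in control and -2.37 ± 0.06 in ceramide libraries (SD, n = 3 each), a difference of -0.59 (exact permutation test, two-sided, p = 0.1). This is the smallest p that 3 libraries against 3 allow, and it was also 0.1 after Benjamini-Hochberg adjustment over the 4 ratios compared. Within replicate 1, 2 and 3 the log2 ratio fell by 0.58, 0.58 and 0.62. Measured against Mir125b-2 the difference was -0.60.

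As a share of Mir125a and Mir125b-1 counts together, Mir125a made up 22.6 ± 0.943% under control and 16.2 ± 0.541% under ceramide conditions (SD, n = 3 each). The lowest control library had 21.8% (95% Wilson interval 21.3 to 22.2%) and the highest ceramide library 16.8% (16.5 to 17.1%). These intervals cover counting error only, and they take each count as a distinct molecule. Together Mir125a and Mir125b-1 held 3.52 ± 0.334% of all counts in the control group and 2.79 ± 0.286% in the ceramide group (SD, n = 3 each). Control libraries had 3.23, 3.45 and 3.89%, ceramide libraries 2.53, 2.75 and 3.10%, without overlap. These shares are of raw library totals, without TMM scaling. With library size alone the median log2 fold change of all rows was -0.09, with 4 rows called higher and 42 lower. How many single rows showed no overlap on that scale was not computed. With all 3 rows added the share was 6.22 ± 0.560% and 5.11 ± 0.503% (SD, n = 3 each).

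**Figure D3:**
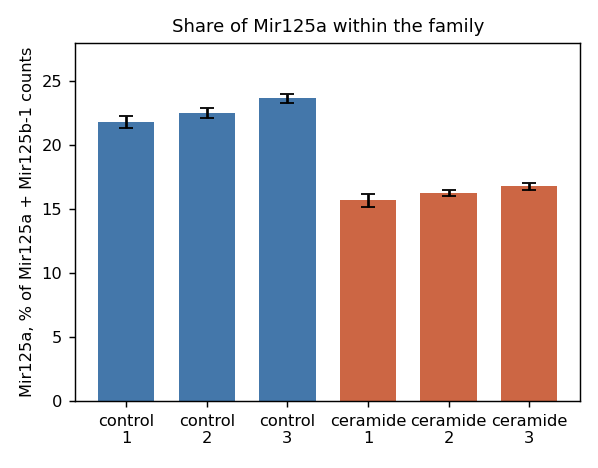
Mir125a counts as a percentage of Mir125a plus Mir125b-1 counts in each library (bars from 0, 95% Wilson intervals). Control libraries lie between 21.8 and 23.7%, ceramide libraries between 15.7 and 16.8%.

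The Mir125b rows held almost the same counts. Mir125b-1 exceeded Mir125b-2 by 338, 412 and 420 counts in control replicates 1, 2 and 3 and by 149, 688 and 761 counts in ceramide replicates 1, 2 and 3, which is 0.871 to 1.38% of the Mir125b-1 count. Whether a read of miR-125b-5p was counted on both rows or divided between them is not given in the sources used here. In the latter case the Mir125b-1 row would hold only part of miR-125b, and the ratios and shares above would be set against that part. In normalized CPM the excess was 313 ± 22.6 for control and 259 ± 65.2 for ceramide libraries (SD, n = 3 each). The table does not give the reads particular to either hairpin.

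The third question concerned the neighbours of each gene, which can arise from one primary transcript. The 5p miRNAs that open the clusters share the seed ACCCGUA and are shown because the first and the last of them differ at 1 position:
miR-99a-5p: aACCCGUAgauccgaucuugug
miR-99b-5p: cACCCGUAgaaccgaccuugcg
miR-100-5p: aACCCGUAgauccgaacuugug

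Of the 6 partner rows, 2 were called lower and 2 higher. Mir99a fell from 324 ± 74.4 to 166 ± 21.3 CPM (SD, n = 3 each), a log2 difference of -0.96 with a standard error of 0.19 (edgeR quasi-likelihood, adjusted p = 0.0139). Mir100 fell from 711 ± 109.9 to 438 ± 57.0 CPM (-0.69, standard error 0.15, adjusted p = 0.0229, same test). For Mir99b the means were 3495 ± 473 and 3223 ± 521 CPM, and the libraries overlapped (-0.12, standard error 0.15, adjusted p = 0.594). So the rows called lower were the miR-99/100 rows in both Mir125b clusters and the miR-125 row in the Mir125a cluster.

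The let-7 rows of the clusters went the other way. Mirlet7c-1, beside Mir125b-2, was called higher (log2 fold change 0.65), and so was Gm25927 (0.62), the row that lies over Mirlet7e on the opposite strand, Mirlet7e having no row. Whether Gm25927 counts reads of let-7e depends on strand use, which is not given in the sources used here. Mirlet7a-2, beside Mir125b-1, passed the p threshold (edgeR quasi-likelihood, adjusted p = 0.00529) at a log2 fold change of 0.57, short of the fold threshold. All 3 let-7 rows were above control in every ceramide library, as were 14.1% of all rows. Reads of let-7 miRNAs are close in sequence and several hairpins share one mature miRNA, so these rows do not measure the neighbouring hairpin alone.

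Several of these partner calls changed with the libraries or settings used. Mir100 was not called without control replicate 1 (log2 fold change -0.70, adjusted p = 0.0999), without ceramide replicate 2 (-0.77, adjusted p = 0.0605) and without control replicate 2 (-0.55, adjusted p = 0.0867, edgeR quasi-likelihood). Mir99a was not called without control replicate 1 (-0.99, adjusted p = 0.0560, same test). Without the filter on low counts Mir100 was not called either (-0.71, adjusted p = 0.0560). Gm25927 without control replicate 1 (0.57), without the filter (0.59) and with library size alone (0.54), and Mirlet7c-1 without ceramide replicate 1 (0.58) and with library size alone (0.57), fell under the fold threshold, and Mirlet7a-2 passed it without control replicate 2 (0.62), without ceramide replicate 3 (0.64), with DESeq2's size factors (0.65) and with upper-quartile factors (0.64). In the fit with lane, which rests on replicate 1 alone, Mir100 (-0.94, adjusted p = 0.122) and Mir99a (-1.12, adjusted p = 0.173) had larger decreases and were not called, and Mirlet7a-2 was called (0.74).

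**Figure D4:**
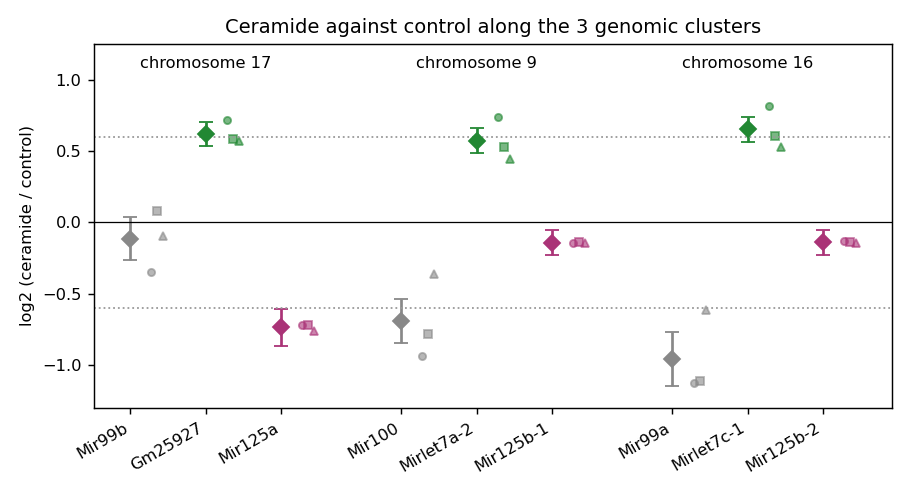
Log2 fold change of ceramide against control (diamonds, with standard error) for the 9 rows of the 3 genomic clusters in genomic order, with the difference within replicate 1, 2 and 3 beside it (circle, square and triangle); miR-99/100 rows are grey, let-7 rows green and miR-125 rows purple. Dotted lines mark a log2 fold change of 0.6 in either direction; the let-7 rows lie above 0, Mir99a, Mir100 and Mir125a below -0.6.

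Ratios within a library come from the same counts, so they restate the contrast between Mir125a and the Mir125b rows without scaling. Mir125a had 2.00, 2.51 and 2.21 counts per Mir99b count in control replicates 1, 2 and 3 and 1.54, 1.44 and 1.39 in ceramide replicates 1, 2 and 3. The log2 ratio was lower with ceramide by -0.61. Mir125b-1 had 34.4, 32.4 and 47.6 counts per Mir100 count in control and 59.6, 50.5 and 55.5 in ceramide libraries, a log2 ratio higher by 0.55. For Mir125b-2 over Mir99a the ratios were 76.9, 65.1 and 111 in control and 153, 128 and 153 in ceramide libraries, higher by 0.81 on the log2 scale. The groups did not overlap in any of these ratios (exact permutation test, two-sided, p = 0.1 for each and 0.1 after adjustment over the 4 ratios). Relative to its miR-99/100 neighbour, Mir125a was thus lower, and each Mir125b row higher, in every ceramide library than in any control library. The Mir125b rows share miR-125b-5p, so neither of their ratios measures its own cluster alone. For the same reason these ratios are not separate results. How often other pairs of rows show no overlap was not computed.

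Mir351, on chromosome X at chrX:53053255-53053353 on the minus strand, shares the miR-125 seed and belongs to another cluster. It had 1581, 1353 and 1809.6 CPM in control replicates 1, 2 and 3 and 1171, 1071 and 1432 CPM in ceramide replicates 1, 2 and 3. The groups overlapped, with ceramide replicate 3 above control replicate 2. The log2 fold change of Mir351 came to -0.37 with a standard error of 0.15 (edgeR quasi-likelihood, adjusted p = 0.126), between those of Mir125a and Mir125b, and it was not called. Within replicate 1, 2 and 3 the log2 level of Mir351 fell by 0.43, 0.34 and 0.34, and blocking on replicate gave an adjusted p of 0.00748 (same test), still short of the fold threshold. None of the 7 rows of its cluster was called, and their log2 fold changes lay between -0.45 (Mir450-2) and 0.11 (Mir322). Of the miRNAs with the seed CCCUGAG, the row of Mir125a alone was called.

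Likeness of pattern was measured as Pearson's r of log2 CPM over the 6 libraries, which fall into 2 groups, as a description. The row most like Mir125a was Mir1964 (r = 0.980), followed by Mir574 (0.961), Mir1199 (0.942), Mir221 (0.941) and Mir128-1 (0.939). Of these 5 rows only Mir221 was called, with a log2 fold change of -1.20. Mir125b-1 and Mir125b-2 were most like each other (r = 1.000). Next for Mir125b-1 came Mir92b (0.960), Mir501 (0.914), Mir574 (0.912) and Mir125a (0.865), and Mir125b-2 had the same 4 rows. Among the cluster partners, r with Mir125a was 0.839 for Mir100, 0.826 for Mir99a and 0.579 for Mir99b, and it was negative for the let-7 partners, at -0.88 for Gm25927, -0.95 for Mirlet7a-2 and -0.94 for Mirlet7c-1.

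The size of the Mir125a change varied little with the analysis. Over the 15 alternatives its log2 fold change lay between -0.82 and -0.64, and it was called in all but the fit with the lane term, which compares a single library of each group. Leaving out each library in turn, it was called each time, with adjusted p from 0.00873 to 0.0378 (edgeR quasi-likelihood). Mir125b-1 lay between -0.22 and -0.07 and Mir125b-2 between -0.22 and -0.07, lower and uncalled in all 15.

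**Figure D5:**
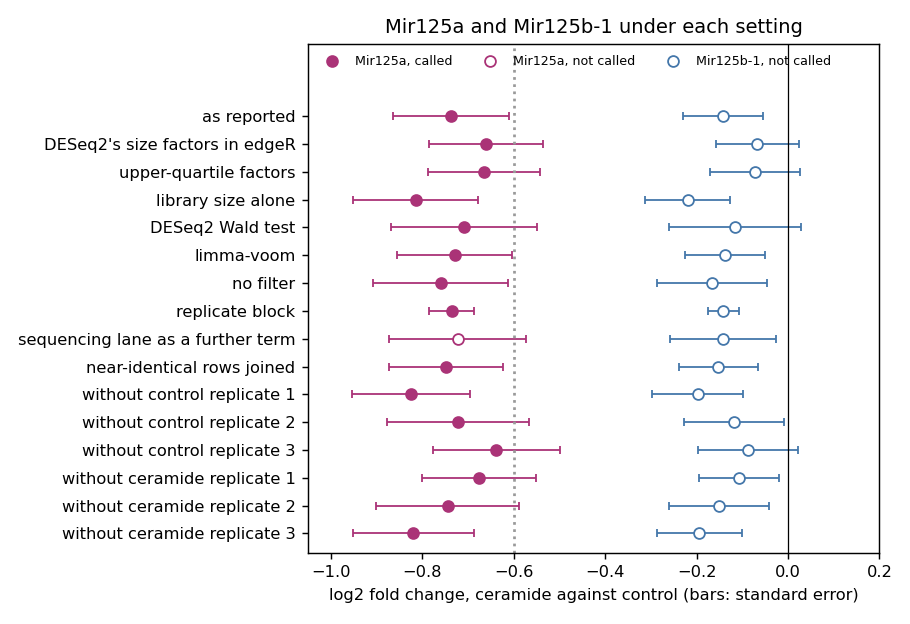
Log2 fold change of Mir125a and Mir125b-1 (horizontal axis, bars are standard errors) under the reported analysis and each of 15 alternatives. Filled symbols are called and open symbols are not; Mir125a is called in all settings but the one with sequencing lane as a term, and Mir125b-1 in none.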

How the data were processed

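Exosomal small RNA of 3 control and 3 ceramide libraries was counted by the authors as raw counts per miRNA gene: adapters were removed with cutadapt 1.15 (reads of at least 15 bases kept), and reads were aligned to GRCm38 with STAR 2.5.3a and assigned with its GeneCounts mode, per the paper's methods and the submitters' processing notes. Strand use, multiply aligned reads and molecular identifiers are not given in the sources used here, and whether a deposited count stands for a sequencing read or for a distinct molecule is likewise not given there. Reads of miR-125b-5p cannot separate Mir125b-1 from Mir125b-2.

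Identifiers were matched to GENCODE M21 (1894 of 1973 rows), and sequences came from RefSeq (GRCm38.p6). All mature miRNAs named matched, as did 2 of 3 member hairpins. Deposited counts were tested with edgeR 4.0.16 (R 4.3.3; filterByExpr, TMM, quasi-likelihood test, condition as the only term). All 3 members were among the 418 rows kept. Standard errors came from the F statistic. Alternatives used DESeq2 1.42.0 and limma 3.58.1 (voom), other scalings, no filter, lane, joining of rows within 5%, the replicate block and leaving out each library. The fit was tested on simulated data. Ratios were compared by exact permutation.

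Across rows, deviations from the group mean correlated at 0.59, 0.43 and 0.75 for libraries of equal replicate number (labels), and at -0.59 to 0.10 otherwise, so the numbers were taken to pair libraries. Such deviations cancel out within a group, so these correlations are not independent of each other. The blocked fit used the same counts. The rule named the members, their cluster partners, rows with the miR-125 seed, the Mir351 cluster, marker lists (neuronal, oligodendrocyte, blood and serum, liver, muscle, endothelium) and the 5 rows most like each member. Members and lists were chosen with earlier results of these data known.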

Additional observations from a re-analysis of the deposited data

How the results depend on the processing

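Blocking on the replicate number raised the rows called from 48 to 87 and changed no call of the members, their partners or the Mir351 cluster. For the 4 ratios the mean over replicate pairs (-0.59, -0.61, 0.55 and 0.81) equals the difference of group means by construction. Each had an exact sign-flip p of 0.25, the smallest 3 pairs allow. The pairs 1, 2 and 3 themselves varied. They gave -0.58, -0.58 and -0.62 for Mir125a to Mir125b and -0.38, -0.80 and -0.66 for Mir125a to Mir99b. For Mir125b-1 to Mir100 they gave 0.79, 0.64 and 0.22, and for Mir125b-2 to Mir99a 0.99, 0.97 and 0.47. With the lane term, where lanes 2 and 4 each hold a single condition and the difference comes from replicate 1 alone, 29 rows were called and Mir125a (-0.72) was not. Leaving out each library gave 28 to 55 called rows, the fewest without control replicate 1. Over the same fits Mir125a lay between -0.82 and -0.64, Mir125b-1 and Mir125b-2 between -0.20 and -0.09, and the ratios of Mir125a to Mir125b between -0.63 and -0.55, Mir125a to Mir99b between -0.69 and -0.53, Mir125b-1 to Mir100 between 0.44 and 0.72 and Mir125b-2 to Mir99a between 0.64 and 1.02. The family's share of counts differed by -0.73 percentage points, by -0.55 to -0.88 over the fits without a library and by -1.11 with all 3 rows added. The direction turned in uncalled rows of the Mir351 cluster, Mir542 without ceramide replicate 3 (-0.045, and up to 0.216 without another library) and Mir450-1 with the lane term (0.081); the cause was not tested. Scaling moved the split of higher and lower calls from 13 and 35 to 21 and 26 with DESeq2's size factors, 23 and 28 with upper-quartile factors and 4 and 42 with library size alone, and the median log2 fold change of all rows lay between -0.09 and 0.07.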
